A study of Mus musculus with 12 samples.

Results

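Intact corneas of mice labelled Dscr-1-/- were compared with intact corneas of wild-type (WT) mice, all of strain C57BL/6J. Dscr1 is an older name of Rcan1, on mouse chromosome 16. The comparison rests on the 4 arrays, of 12 in the series, whose titles name an intact Dscr1KO cornea (2 arrays) or an intact WT cornea (2 arrays), and on all probe sets that carry 1 gene symbol. Of 18194 genes with such a probe set, 12718 were bright enough to be tested. Each array measured RNA of a whole dissected cornea, so epithelium, stroma and endothelium are read together, and fewer cells of a type cannot be told apart from less RNA per cell. Values of 6 other groups stand beside the comparison where they bear on it. These are intact corneas of mice that lack both genes (the double knockout, Dscr-1-/- and ApoE-/-, 2 arrays) and of ApoE-/- mice alone (ApoeKO, 2 arrays), and corneas 5 days after suturing from Dscr-1-/- and from wild-type mice (1 array each), and for the crystallins alone corneas 7 days after suturing from the mice labelled Dscr1TG and from wild-type mice (1 array each). Sutures in the cornea are a standard way to provoke inflammation and vessel ingrowth. The labels call the arrays of a group biological replicates but do not say that they came from separate mice, so p-values measure only the spread between these arrays. No source used here gives the age or sex of the mice or the design of the knockout alleles.

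Rcan1 encodes regulator of calcineurin 1, a small protein that binds calcineurin, the calcium-dependent phosphatase that sends NFAT transcription factors into the nucleus. In endothelial cells, NFAT activity switches Rcan1 on, and its product in turn restrains calcineurin. A healthy cornea is clear and free of blood vessels. Its surface is a stratified epithelium that stays moist and does not cornify, marked in mouse by keratin 12, and its stroma is made by keratocytes. In cornified epithelia such as epidermis, the outer cells are filled with loricrin, repetin and small proline-rich (SPRR) proteins, which transglutaminases link into a tough envelope.

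Intensities were scaled by the depositors so that the trimmed mean was 100 on every array, and array medians lay between 15.6 and 21.1. Differences are given on the log2(intensity + 3.6) scale, which understates the change of genes near background. Errors after a log2 difference are standard errors, with the spread pooled over all 8 intact arrays. Errors and p-values thus depend in part on the ApoeKO and double knockout arrays. The library labelled Dscr1KO replicate 2 has Dscr-1-/- in its title and genotype, but ApoE-/- in its source name and description. It read 317 for Apoe, against 1272 in Dscr1KO replicate 1 and 1030.5 and 776.5 in WT. The library labelled ApoeKO replicate 1 read 849 for Apoe, against 7.5 in the other ApoeKO array. The ratio of the 3′ to the 5′ control probe set of Gapdh, which climbs as RNA degrades, was 1.64 and 2.91 in the Dscr1KO arrays, against 1.36 and 1.32 in the WT arrays. The Dscr1KO arrays differed by at least 2-fold from each other in 1646 genes (12.94%), against 220 genes (1.73%) for the WT arrays, so the error of a single Dscr1KO value is the larger. The sex-linked genes also separated the groups. Xist, the RNA of the silenced X chromosome, read 4104 and 5385 in Dscr1KO, against 14.9 and 8.9 in WT, and Y-linked Eif2s3y read 3.0 and 2.6 in Dscr1KO, against 633 and 675.5 in WT. Genotype and sex-linked expression therefore cannot be told apart within these 4 arrays.

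In the fit over all genes tested, 1474 of 12718 (11.6%) passed an adjusted p of 0.05, 982 of them higher in Dscr1KO (7.72%) and 492 lower (3.87%). At an unadjusted p of 0.05 the number was 3732 (29.3%). Both Dscr1KO arrays lay above both WT arrays in 3611 genes (28.4%) and below both in 4146 (32.6%). The rises were the larger changes. Their median was 2.10 on the log2 scale and 123 of them were at least 4, while the falls had a median of -1.24 and 7 of them were at least 4 in size. Of the 982 genes that rose, 335 had a WT mean below the intensity that the filter asks for, so that they were near background in WT and measured mainly in Dscr1KO. Without Dscr1KO replicate 2, 818 genes were higher and 265 lower, and 690 and 230 of the genes called with all arrays passed again. Leaving out WT replicate 1 left 314 higher and 24 lower, WT replicate 2 left 232 and 22, and Dscr1KO replicate 1 gave 1792 and 2054, so the number of calls is not well determined by arrays this few. Among the largest rises were envelope genes of cornified epithelium, the proteases Klk13 and Mmp13, S100a8 and the X-linked Xist (8.27). Among the largest falls were lens crystallins, Y-linked genes, Ang, 2 Trim genes and the basement membrane collagen Col4a3.

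**Figure D1:**
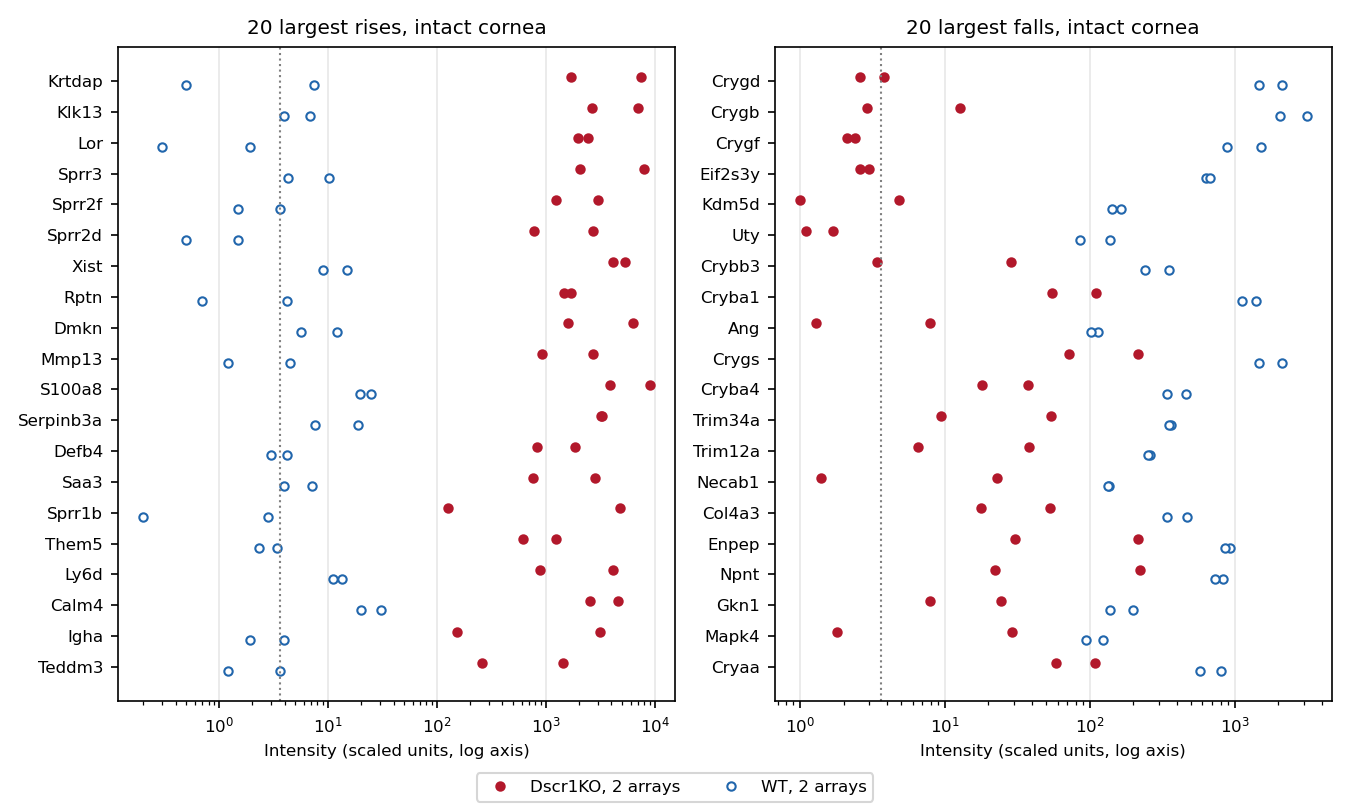
The 20 genes with the largest rises (left panel) and the 20 with the largest falls (right panel) among genes past the threshold, each intact array a point: filled for the 2 Dscr1KO arrays and open for the 2 WT arrays, on a log axis of scaled intensity, with the added constant of 3.6 as a dotted line. No gene shown has overlapping groups, and most WT points on the left, and the Dscr1KO points of Crygd, Crygf, Eif2s3y and Uty on the right, lie near or below the dotted line.

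Rcan1 itself read 477.5 and 336 in Dscr1KO corneas, against 630.4 and 649.5 in WT corneas. Both Dscr1KO values were lower than both WT values, but the difference of -0.67 ± 0.20 missed the threshold (adjusted p = 0.067). The difference was -0.92 without Dscr1KO replicate 1 and -0.42 without Dscr1KO replicate 2. It was -0.69 without WT replicate 1 and -0.65 without WT replicate 2. Each of these fits left 1 array in a group, and the first kept only the Dscr1KO array with conflicting labels. With only the compared arrays in the fit, Rcan1 also missed the threshold (adjusted p = 0.157). A second, dimmer Rcan1 probe set read 13.3 and 10.5 in Dscr1KO, against 30.4 and 35.2 in WT. The bright probe set thus stayed far above background in both Dscr1KO arrays, and no source used here places either probe set relative to the deleted sequence. In the double knockout the bright probe set read 380 and 332, against 668 and 581 in ApoeKO. Of the 5 genes on either side of Rcan1 on chromosome 16, 6 were tested and 2 passed. Runx1, a transcription factor of blood formation, read 122.5 and 115.5 in Dscr1KO, against 45.3 and 31.8 in WT (1.56 ± 0.23, adjusted p = 0.00674), though 1 of its 6 probe sets had the opposite sign. Cbr3, a carbonyl reductase, read 455.5 and 663 in Dscr1KO, against 265 and 274 in WT (1.02 ± 0.21, adjusted p = 0.0233). Its neighbour Cbr1 went the other way without passing, at 216 and 149.5 in Dscr1KO, against 291 and 296.5 in WT. Smim11, Clic6 and Setd4 had log2 differences between -0.29 and 0.33 and did not pass, Kcne1, Kcne2 and Fam243 were below the filter, and Smim34 was not analysed here.

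Of 10 tested genes of calcineurin, its regulators and its binding partners, 1 (10%) rose and none fell, beside 7.72% and 3.87% of all genes tested. The median log2 difference was 0.13, beside -0.03 over all genes tested. The gene that rose was Fkbp1a, the binding protein of the calcineurin-blocking drug FK506, at 723 and 678.5 in Dscr1KO, against 273 and 320.1 in WT (1.23 ± 0.17). The catalytic subunit gene Ppp3ca read 719 and 581 in Dscr1KO, against 945 and 929.8 in WT (-0.53 ± 0.16, adjusted p = 0.0727), and the relatives Rcan2 and Rcan3 did not pass. None of the 5 NFAT factor genes passed either. Nfatc2 read 213 and 114.5 in Dscr1KO, against 253 and 269 in WT (-0.73 ± 0.28, adjusted p = 0.132), and Nfatc4 (0.45 ± 0.20) was on the high side. No calcineurin gene passed without WT replicate 1, and without Dscr1KO replicate 1 the list had 1 rise and 3 falls.

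The envelope genes of cornified epithelium gave the largest rises. Of 9 tested SPRR genes 8 rose, with a median of 6.36, and of 23 tested genes of the late envelope and granular layer 14 rose and none fell, with a median of 3.41. Loricrin (Lor), the main envelope protein of epidermis, read 1995 and 2464 in Dscr1KO corneas, against 1.9 and 0.3 in WT corneas (8.91 ± 0.29, adjusted p = 2.5e-05). Repetin (Rptn), a granular layer protein, read 1478 and 1716 in Dscr1KO, against 4.2 and 0.7 in WT (8.11 ± 0.36). In both, the Dscr1KO arrays lay close together and the WT arrays were at background. Krtdap, a secreted protein of differentiating keratinocytes, had the largest difference of all, 9.04 ± 0.68, at 1697 and 7452 in Dscr1KO, against 7.5 and 0.5 in WT. Dmkn (dermokine) read 1612 and 6332 in Dscr1KO, against 12.1 and 5.7 in WT (8.05 ± 0.56). Here the Dscr1KO arrays differed more, yet both stood far above WT. Among the SPRR genes, Sprr3 read 2056.5 and 8002 in Dscr1KO, against 10.1 and 4.3 in WT (8.61 ± 0.59). Sprr2f read 1243 and 3004 in Dscr1KO, against 3.6 and 1.5 in WT (8.32 ± 0.40). Sprr2d read 776 and 2696 in Dscr1KO, against 0.5 and 1.5 in WT (8.31 ± 0.54). Sprr1b was spread most, at 128 and 4797 in Dscr1KO, against 2.8 and 0.2 in WT (7.33 ± 1.36, adjusted p = 0.0149). SPRR genes resemble each other closely, so their probe sets may read more than 1 member.

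Other envelope genes were already measurable in WT. Sprr1a read 3109 and 8053 in Dscr1KO, against 60.5 and 62.5 in WT (6.27 ± 0.39). Suprabasin (Sbsn) read 1576 and 5964 in Dscr1KO, against 51.7 and 57.5 in WT (5.72 ± 0.52). Cornifelin (Cnfn) read 829 and 4099 in Dscr1KO, against 54.2 and 62.5 in WT (4.90 ± 0.60). The late cornified envelope gene Lce3f read 1968.5 and 3566 in Dscr1KO, against 115.5 and 106.5 in WT (4.53 ± 0.37). Crct1 read 716 and 4359 in Dscr1KO, against 99.6 and 90.8 in WT (4.17 ± 0.74). These rises therefore do not depend on a value near background. Not every envelope gene passed the test. Involucrin (Ivl), an early envelope protein, read 44.1 and 70.0 in Dscr1KO, against 131 and 99.4 in WT (-0.99 ± 0.27, adjusted p = 0.0517), on the low side. Filaggrin (Flg), the keratin-bundling protein of the granular layer, read 318 and 9.5 in Dscr1KO, against 2.5 and 2.5 in WT, and with only 1 Dscr1KO array high it did not pass. Without Dscr1KO replicate 2, 8 SPRR genes and 19 late envelope genes rose and 1 late envelope gene fell. With either WT array left out the counts of rises were 5 and 7.

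The 250 bases before the RefSeq start of 4 of these genes (build GRCm38.p6) are printed because each holds 1 copy of TGANTCA. Here N is any base, so the pattern is wider than the AP-1 site TGAGTCA, which is the form in all 4. The copy is in capitals, 48 bases before the start of Lor, 81 before that of Krtdap, 193 before that of Sprr2d and 197 before that of Sprr2f.
Lor, chr3:92083143-92083392, minus strand: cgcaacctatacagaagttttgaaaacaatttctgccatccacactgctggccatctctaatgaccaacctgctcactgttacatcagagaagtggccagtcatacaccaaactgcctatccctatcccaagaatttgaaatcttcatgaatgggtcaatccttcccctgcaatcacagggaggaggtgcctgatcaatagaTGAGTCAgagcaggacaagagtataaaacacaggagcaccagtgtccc
Krtdap, chr7:30787655-30787904, plus strand: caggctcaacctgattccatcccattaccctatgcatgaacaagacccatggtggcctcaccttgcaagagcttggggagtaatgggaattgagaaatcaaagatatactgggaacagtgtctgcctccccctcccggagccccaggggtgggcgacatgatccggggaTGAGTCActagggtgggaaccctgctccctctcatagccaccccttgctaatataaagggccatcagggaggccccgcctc
Sprr2d, chr3:92338890-92339139, plus strand: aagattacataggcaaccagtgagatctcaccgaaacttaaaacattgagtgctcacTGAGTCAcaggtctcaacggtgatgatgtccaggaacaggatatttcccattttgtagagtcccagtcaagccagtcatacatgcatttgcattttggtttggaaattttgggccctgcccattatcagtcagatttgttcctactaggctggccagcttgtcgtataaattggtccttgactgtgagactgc
Sprr2f, chr3:92364937-92365186, plus strand: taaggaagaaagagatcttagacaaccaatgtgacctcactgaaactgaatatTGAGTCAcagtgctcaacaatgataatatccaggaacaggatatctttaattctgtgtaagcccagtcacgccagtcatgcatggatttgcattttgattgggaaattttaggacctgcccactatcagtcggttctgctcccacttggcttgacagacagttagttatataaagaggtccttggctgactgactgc
The motif reads the same on both strands, and 6.75% of all 32851 such windows hold it. It was in 7 of the 8 SPRR genes with a window, in 7 of the 20 late envelope genes, in none of the 8 kallikreins and Spink inhibitors and in 2 of the 11 crystallins. Of genes tested, 4.62% of first windows held it, against 8.33% of those of genes that rose and 4.49% of those of genes that fell. A match describes the letters in these windows and is not a measured binding site.

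Proteases of the cornifying surface and their inhibitors rose with the envelope genes. Of 10 tested kallikreins and Spink inhibitors 9 rose (median 3.83), and of 11 tested clade B serpins 7 rose (median 1.36). Kallikreins cut the junctions that hold outer cells together. Klk13 read 2662 and 7065 in Dscr1KO corneas, against 6.9 and 3.9 in WT corneas (8.93 ± 0.45). Klk8 read 568 and 1911 in Dscr1KO, against 38.5 and 24.0 in WT (4.94 ± 0.50). Klk10 read 143 and 843 in Dscr1KO, against 15.4 and 8.8 in WT (4.52 ± 0.70). Serpinb3a, an inhibitor of cysteine proteases, was near equal in the Dscr1KO arrays, at 3251 and 3188, and read 18.9 and 7.6 in WT (7.67 ± 0.31). Serpinb12 read 378 and 226 in Dscr1KO, against 3.4 and 0.2 in WT (5.84 ± 0.36). Of 23 tested genes of barrier lipids and transglutaminases 9 rose. Tgm3, which links envelope proteins, read 90.3 and 660.3 in Dscr1KO, against 1.5 and 2.2 in WT (5.52 ± 0.76). Elovl4, which makes very long fatty acids, read 215 and 1253 in Dscr1KO, against 23.1 and 9.7 in WT (4.80 ± 0.75). The lipoxygenase gene Alox12b rested mostly on replicate 2, at 14.2 and 299.9 in Dscr1KO, against 0.3 and 0.4 in WT (4.22 ± 1.07, adjusted p = 0.0444). Without Dscr1KO replicate 1 the lipid list had 14 rises and 3 falls. Without WT replicate 1 the kallikrein, serpin and lipid counts were 5, 4 and 5, and without WT replicate 2 they were 4, 4 and 3.

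Keratins of skin and of mucosa were higher, on top of the corneal set. Of 8 tested keratins of epidermis 4 rose, and of 10 tested keratins of mucosal and simple epithelium 4 rose, with none lower in either list. Krt10, the keratin of the spinous layer of epidermis, read 5532 and 4789 in Dscr1KO, against 165 and 164 in WT (4.94 ± 0.21, adjusted p = 6.49e-05), with little spread in either group. Its partner Krt1 read 3806 and 221.5 in Dscr1KO, against 35.5 and 28.3 in WT (4.71 ± 1.12), with replicate 1 far above replicate 2. The wound keratins ran the other way between replicates. Krt16 read 496 and 6481 in Dscr1KO, against 59.4 and 32.7 in WT (5.23 ± 1.05). Krt17 read 807 and 2591 in Dscr1KO, against 26.1 and 11.6 in WT (6.09 ± 0.62). The mucosal pair Krt4 and Krt13, found in conjunctiva, also rose. Krt4 read 7769 and 11728 in Dscr1KO, against 506 and 294 in WT (4.61 ± 0.30). Krt13 read 6426 and 8632 in Dscr1KO, against 1269 and 1311.5 in WT (2.53 ± 0.19). Of the basal keratins Krt14 rose, at 4200.4 and 8672 in Dscr1KO, against 958 and 761 in WT (2.82 ± 0.36), while its partner Krt5 did not pass, at 6037 and 6525 in Dscr1KO, against 6860.2 and 5465 in WT. Krt2, which marks mature epidermis, was below the filter. With WT replicate 1 or replicate 2 left out, 2 epidermal and 3 mucosal keratins rose.

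The markers of corneal epithelium itself stayed high in both groups. Krt12 read 7192 and 10080.3 in Dscr1KO, against 7261 and 5291 in WT (0.46 ± 0.24, adjusted p = 0.252), the aldehyde dehydrogenase Aldh3a1 read 6626 and 7558 in Dscr1KO, against 7319.7 and 5535.5 in WT (0.15 ± 0.19), and transketolase (Tkt) read 7081 and 8408 in Dscr1KO, against 8137 and 6241 in WT (0.11 ± 0.21), though a dimmer Tkt probe set was lower in Dscr1KO (-2.27). With quantile normalization Aldh3a1, Tkt and Krt5 turned slightly below 0 (-0.12, -0.20 and -0.20). The labelled tissue thus carried its defining markers in all 4 arrays. Pax6, the master regulator of eye tissues, read 2459 and 1008 in Dscr1KO, against 3261 and 3118 in WT (-1.02 ± 0.38, adjusted p = 0.123) and did not pass. Of 20 tested genes of this list 2 (10%) rose and none fell, with a median of 0.01, beside 7.72% and 3.87% of all genes tested. The 2 were Krt14 and the glutathione peroxidase gene Gpx2 (316 and 415 in Dscr1KO, against 18.3 and 13.7 in WT). Without Dscr1KO replicate 1, 7 of the 20 fell and 2 rose. Cldn10, a claudin on the same list, read 195 and 7.1 in Dscr1KO, against 741 and 635.5 in WT and did not pass (adjusted p = 0.0591). Sox2, a transcription factor of progenitor cells in several epithelia and named by its size of change, read 281 and 369 in Dscr1KO, against 6.1 and 0.4 in WT (5.71 ± 0.44).

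Of 9 tested genes of the conjunctiva and its goblet cells 4 rose, 1 with either WT array left out. The summed intensity of the 15 with a probe set, 6 of them below the filter, was 12990 and 10653 in Dscr1KO, against 14119 and 11526 in WT. Muc4, a membrane mucin bright in all arrays, did not pass (-0.30 ± 0.19). Muc5ac, the goblet cell mucin, read 355 and 103 in Dscr1KO, against 1.3 and 7.5 in WT (4.73 ± 0.75). Spdef, the goblet cell transcription factor, read 21.6 and 25.6 in Dscr1KO, against 3.3 and 5.2 in WT (1.80 ± 0.36). The hair keratins Krt25 and Krt71 were below the filter, none of 5 tested hair follicle genes, 5 sebaceous and meibomian gland genes or 3 lacrimal gland genes passed (2 hair and 2 sebaceous genes fell without Dscr1KO replicate 1), and Adipoq, the fat cell hormone, was below the filter. Of 5 tested fat cell genes Fabp4 rose. The summed intensity of the 10 with a probe set was 5337 and 790 in Dscr1KO, against 7496 and 6199 in WT, most of it from Car3 in every array but Dscr1KO replicate 2. The 8 lacrimal gland genes with a probe set summed to 6920 and 6665 in Dscr1KO, against 8630 and 6796 in WT. Most of it came from Aqp5, a water channel that corneal epithelium also makes, which was looked up after the sums were seen. The part of conjunctival or skin tissue carried over in dissection in these rises was not tested.

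**Figure D2:**
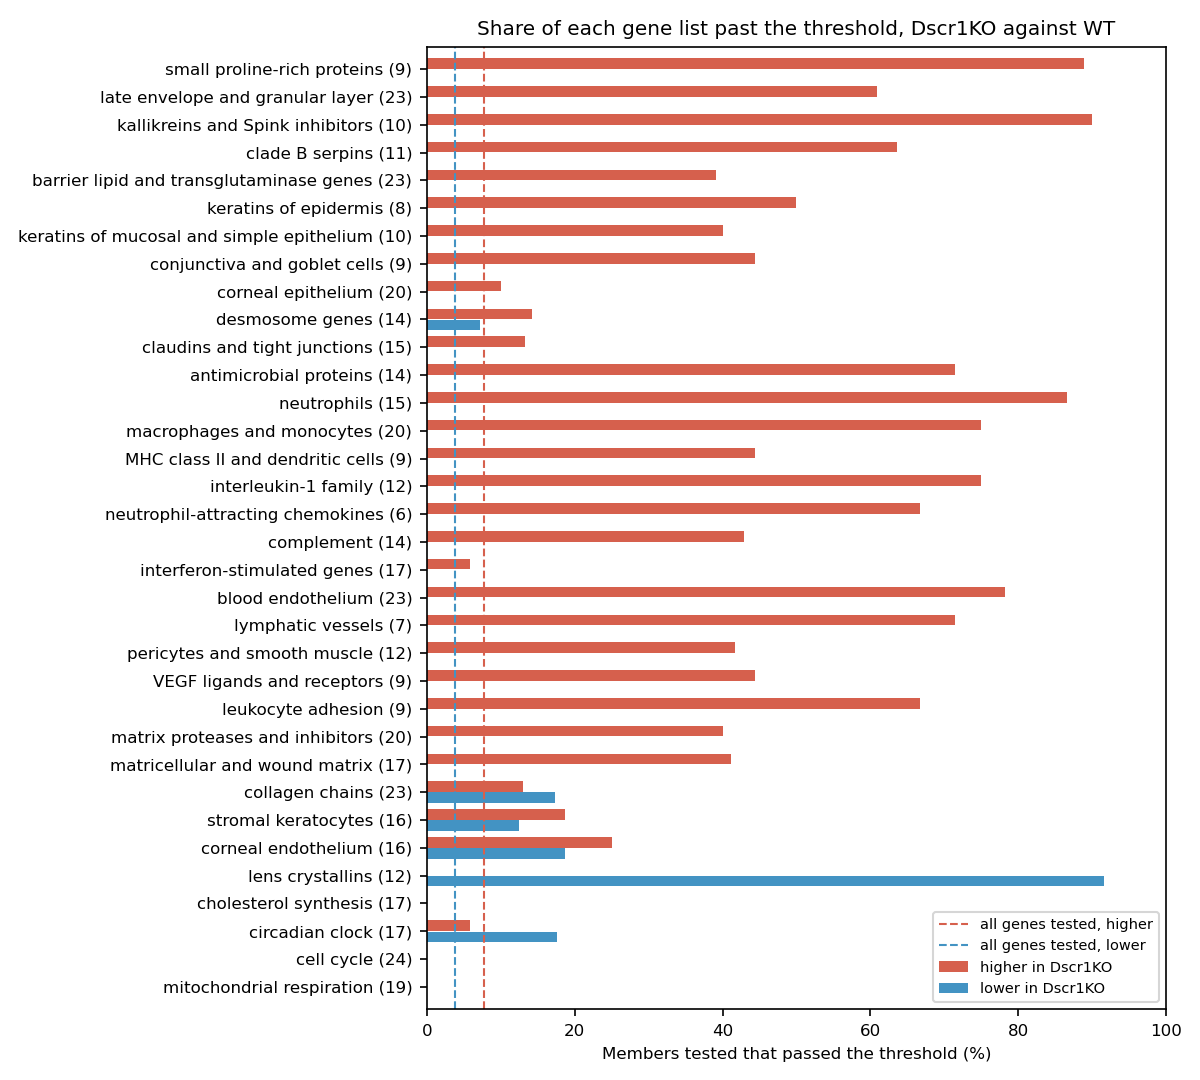
The share of tested members of 34 gene lists that passed the threshold, in percent, with red bars for members higher in Dscr1KO and blue bars for members lower in Dscr1KO, the number tested in brackets, and dashed lines at the shares over all 12718 genes tested. The SPRR, kallikrein, neutrophil and macrophage lists and the blood endothelium list lie far to the right of the red line, the crystallin list far to the right of the blue one, and the cholesterol synthesis, cell cycle and respiration lists have no bar.

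Antimicrobial and inflammatory genes rose across several families. Of 14 tested antimicrobial genes 10 rose, with a median of 3.61. The beta-defensins Defb4 and Defb3 were at background in WT. Defb4 read 836 and 1843 in Dscr1KO, against 3.0 and 4.2 in WT (7.44 ± 0.38). Defb3 read 553 and 516 in Dscr1KO, against 2.7 and 0.6 in WT (6.71 ± 0.33). Slpi, a secreted inhibitor of neutrophil elastase, read 1588 and 2136 in Dscr1KO, against 42.3 and 28.3 in WT (5.59 ± 0.34). Of 12 tested genes of the interleukin-1 family and its processing 9 rose. Il33, an alarm cytokine stored in nuclei, was near equal within each group, at 678.5 and 671 in Dscr1KO, against 43.0 and 36.2 in WT (3.98 ± 0.23). Casp1, which cuts interleukin-1β to its active form, read 214.5 and 168 in Dscr1KO, against 6.1 and 1.1 in WT (4.84 ± 0.40), and Il1b itself read 234 and 361 in Dscr1KO, against 18.0 and 13.3 in WT (3.94 ± 0.67). Of 8 tested acute-phase genes 6 rose. Among them was Socs3, the feedback inhibitor of cytokine signalling, at 419 and 891 in Dscr1KO, against 23.0 and 23.9 in WT (4.51 ± 0.34). Below the filter were 7 further acute-phase genes, 5 antimicrobial genes and 3 of the interleukin-1 list. A gene at background in WT could be tested only through arrays where it was high. Saa3 read 2855 and 770.5 in Dscr1KO, against 3.9 and 7.2 in WT (7.37 ± 1.51), but it was also high in ApoeKO replicate 1, at 2300.5. The antimicrobial, interleukin-1 and acute-phase counts were 7, 6 and 2 without WT replicate 1, and 4, 6 and 3 without WT replicate 2.

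Leukocyte genes rose as groups. Of 15 tested neutrophil genes 13 rose (median 3.72), of 20 macrophage and monocyte genes 15 rose (median 2.72), and none fell in either. The summed intensity of the 20 neutrophil genes with a probe set, tested or not, was 13576 and 23280 in Dscr1KO, against 850 and 785 in WT. That of the 23 macrophage and monocyte genes with a probe set was 12980 and 5578 in Dscr1KO, against 1134 and 1095 in WT. S100a8 and S100a9 made up most of the neutrophil sum in Dscr1KO, and the median difference of replicate 1 minus replicate 2 was 0.18 for neutrophil genes and 0.94 for macrophage genes. S100a8 and S100a9 encode the subunits of calprotectin, which keratinocytes under stress also make. S100a8 read 3893 and 9011 in Dscr1KO, against 24.6 and 19.5 in WT (7.86 ± 0.62). S100a9 read 4269 and 10319 in Dscr1KO, against 170.5 and 103 in WT (5.61 ± 0.51). The G-CSF receptor gene Csf3r, more specific to neutrophils, read 266 and 173 in Dscr1KO, against 3.0 and 9.2 in WT (4.57 ± 0.73). Clec4d read 263 and 394 in Dscr1KO, against 5.2 and 5.4 in WT (5.19 ± 0.57). The granule enzymes Mpo and Elane, made in bone marrow, were below the filter. Csf1r, the receptor that macrophages live by, read 2225 and 1653 in Dscr1KO, against 147.5 and 127 in WT (3.77 ± 0.34). Tyrobp read 912 and 439 in Dscr1KO, against 32.7 and 25.7 in WT (4.29 ± 0.62). Mpeg1 read 878.5 and 255 in Dscr1KO, against 18.8 and 19.4 in WT (4.40 ± 0.58). C1qa, C1qb and C1qc, the chains of complement C1q made by macrophages, rose by 3.27, 3.25 and 2.73 on the log2 scale. The neutrophil and macrophage counts were 8 and 6 without WT replicate 1, and 7 and 5 without WT replicate 2.

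Chemokines and antigen presentation gave smaller groups. Of 6 tested neutrophil-attracting chemokines and growth factors 4 rose, and of 14 other chemokines 6 rose. Below the filter were 3 and 8 further members of these lists, and 8 of the MHC class II and dendritic cell list. Cxcl5 read 581 and 634 in Dscr1KO, against 8.5 and 1.3 in WT (6.31 ± 0.83). Cxcl1 read 211 and 1189 in Dscr1KO, against 12.3 and 15.2 in WT (4.87 ± 0.68). Cxcl12, which guides stem cells and lymphocytes, read 559 and 369 in Dscr1KO, against 39.2 and 21.6 in WT (3.80 ± 0.41). Cxcl2 was high only in Dscr1KO replicate 2, at 44.5 and 1333 in Dscr1KO, against 5.2 and 10.3 in WT, and did not pass (adjusted p = 0.0734). Of 9 tested MHC class II and dendritic cell genes 4 rose, and without Dscr1KO replicate 2, 7 rose. H2-Aa read 2152 and 908.5 in Dscr1KO, against 129.5 and 81.0 in WT (3.72 ± 0.61). Of 17 interferon-stimulated genes only Mx1 passed (1.5 ± 0.37), and without Dscr1KO replicate 2, 3 rose. Lymphocyte genes depended on 1 array. Igha, the constant chain of IgA, read 3116 and 152.5 in Dscr1KO, against 1.9 and 3.9 in WT, and Jchain read 1076 and 20.1 in Dscr1KO, against 9.6 and 5.5 in WT, with replicate 1 the high array in both, and Jchain did not pass. With all arrays 1 of 6 B and plasma cell genes (Ighm) and 1 of 4 T and NK cell genes (Il7r) rose, and without Dscr1KO replicate 2 the counts were 5 and 3. With either WT array left out no gene of the MHC class II, interferon, B cell or T cell lists passed, the neutrophil-attracting count was 3 or 2 and the other chemokine count 2 or 3. Of the T and NK cell list 13 genes were below the filter, the T cell genes Cd3d and Cd3e among them.

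Vessel genes were higher in the Dscr1KO arrays, while a healthy cornea has no blood vessels. The part of neighbouring tissue with vessels carried over in dissection in these rises was not tested. Of 23 tested blood endothelium genes 18 rose and none fell, with a median of 2.53. The summed intensity of the 25 with a probe set was 2410 and 3379 in Dscr1KO, against 631 and 515 in WT. Vwf, the clotting factor stored in endothelium, read 182 and 230.5 in Dscr1KO, against 6.0 and 2.1 in WT (4.82 ± 0.33). Plvap, which forms the diaphragms of endothelial pores, read 280 and 403 in Dscr1KO, against 13 and 9.8 in WT (4.51 ± 0.59). Cdh5, the endothelial cadherin, read 52.1 and 78.9 in Dscr1KO, against 1.9 and 7.9 in WT (3.09 ± 0.40). In each the groups lay well apart. Aplnr, the apelin receptor of sprouting vessels, read 350.4 and 867 in Dscr1KO, against 7.1 and 1.1 in WT (6.29 ± 0.65), and Mmrn2 and Cd93, partners at the endothelial surface, rose by 5.16 and 4.98. Without Dscr1KO replicate 2, 10 of the 23 rose, and without WT replicate 1 or WT replicate 2, 9 did. Of 12 pericyte and smooth muscle genes 5 rose, with Rgs5, a pericyte marker, at 759 and 2778 in Dscr1KO, against 45.3 and 23.1 in WT (5.33 ± 0.56). That list kept 3 rises without Dscr1KO replicate 2, and 2 or 1 without WT replicate 1 or 2. The blood cell gene Hba-a1 was below the filter.

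Lymphatic and angiogenic genes were counted apart. Of 7 tested lymphatic genes 5 rose. Flt4, the VEGF receptor of lymphatics, read 55.2 and 91.5 in Dscr1KO, against 9.9 and 3.8 in WT (2.90 ± 0.39). Lyve1 read 46.4 and 138 in Dscr1KO, against 2.1 and 4.8 in WT (3.61 ± 0.63), while Prox1, the lymphatic master regulator, was below the filter and Pdpn did not pass (0.41 ± 0.19). Of 9 VEGF ligand and receptor genes 4 rose. Flt1, which in the cornea also yields a soluble trap for VEGF, read 54.1 and 53.9 in Dscr1KO, against 4.1 and 11.9 in WT (2.40 ± 0.46). Vegfd read 97.5 and 82.4 in Dscr1KO, against 19.3 and 30.7 in WT (1.73 ± 0.28). Vegfa read 47.9 and 98.1 in Dscr1KO, against 63.5 and 37.1 in WT and Kdr, its main receptor, 60.2 and 59.9 in Dscr1KO, against 86.5 and 67.5 in WT, and neither passed. Of 14 angiogenesis regulators 3 rose and 1, Ang, fell. Thbs2, an inhibitor of vessel growth, read 1235 and 1023 in Dscr1KO, against 364 and 239 in WT (1.92 ± 0.28). Angpt1, a stabilizer of vessels, read 42.2 and 33.9 in Dscr1KO, against 6.6 and 5.8 in WT (2.08 ± 0.33). Of 9 leukocyte adhesion genes 6 rose, among them Icam1 at 459 and 343 in Dscr1KO, against 24.5 and 21.1 in WT (3.93 ± 0.24), and Selp, the P-selectin of activated endothelium, at 153 and 84.7 in Dscr1KO, against 1.6 and 0.8 in WT (4.62 ± 0.41). Without WT replicate 1 or 2 the lymphatic count was 3 or 2, the VEGF count 2 or 3, the count of risen angiogenesis regulators 2 or 1 and the adhesion count 3 in both. Without Dscr1KO replicate 1, 3 angiogenesis regulators fell.

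Stromal matrix genes changed in both directions. Of 23 collagen chains 3 rose (Col3a1, Col14a1 and Col18a1) and 4 fell (Col4a3, Col4a4, Col4a5 and Col17a1, the last 2 named after their values were seen). Col3a1, the collagen of scars and vessels, read 4275 and 6194 in Dscr1KO, against 300.3 and 156 in WT (4.55 ± 0.76). Col14a1 read 479 and 404 in Dscr1KO, against 39.8 and 29.0 in WT (3.56 ± 0.45). Col18a1, a collagen of basement membranes, read 110.2 and 161 in Dscr1KO, against 18.1 and 14.5 in WT (2.79 ± 0.26). Col1a1 and Col1a2, the main stromal collagen, did not pass (1.10 ± 0.37 and 0.29 ± 0.18). Col4a3 and Col4a4, chains of 1 basement membrane network, fell. Col4a3 read 53.1 and 17.8 in Dscr1KO, against 467 and 344 in WT (-3.54 ± 0.50). Col4a4 read 144.5 and 24.4 in Dscr1KO, against 547 and 436 in WT (-2.93 ± 0.65). Of 17 matricellular and wound matrix genes 7 rose. Tnc (tenascin C) read 519 and 765 in Dscr1KO, against 22.2 and 6.4 in WT (5.30 ± 0.76), and Postn (periostin) read 1987 and 1791 in Dscr1KO, against 194 and 118 in WT (3.61 ± 0.31). Among genes in no list, asporin (Aspn), a relative of decorin, read 403 and 201 in Dscr1KO, against 3.9 and 1.8 in WT (5.50 ± 0.66). The collagen falls numbered 0 or 1 without WT replicate 1 or 2. Without Dscr1KO replicate 2 the wound matrix count was 5 rises and 1 fall, and without WT replicate 1 or 2 it was 4 or 2 rises.

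Of 20 tested matrix proteases and inhibitors 8 rose, 4 without Dscr1KO replicate 2, and 4 and 1 without WT replicates 1 and 2. Mmp13, a collagenase, read 2712 and 921 in Dscr1KO, against 4.5 and 1.2 in WT (7.99 ± 1.09). Mmp3 (stromelysin) read 3487 and 4057 in Dscr1KO, against 94.0 and 12.2 in WT (6.58 ± 1.43). Mmp9, a gelatinase, read 152.5 and 187 in Dscr1KO, against 9.4 and 7.6 in WT (3.84 ± 0.31). Mmp3 was also spread in WT and read 768 in ApoeKO replicate 1. Of 20 TGF-beta pathway genes 6 rose and 2 fell, with Ltbp2, which binds microfibrils, at 781 and 420 in Dscr1KO, against 8.4 and 7.9 in WT (5.62 ± 0.65), and the receptor Tgfbr2 at 1231 and 997 in Dscr1KO, against 429 and 305 in WT (1.61 ± 0.21). Without WT replicate 1 or 2, 3 or 2 rose and none fell, and without Dscr1KO replicate 1 or 2, 7 or 5 rose and 4 or 1 fell. Among 16 keratocyte genes 3 rose and 2 fell. Angptl7, an angiopoietin-like protein of stroma, read 164 and 64.3 in Dscr1KO, against 965 and 675 in WT (-2.92 ± 0.39). Thbs4 read 285 and 244.5 in Dscr1KO, against 1008 and 545 in WT (-1.48 ± 0.28). Osteomodulin (Omd), a keratan sulfate proteoglycan, was among the 3 that rose, at 142 and 45.4 in Dscr1KO, against 15.9 and 12.4 in WT (2.26 ± 0.58). Keratocan (Kera) read 1388 and 853 in Dscr1KO, against 4993 and 3452 in WT (-1.93 ± 0.55, adjusted p = 0.0618), lumican (Lum) read 2446 and 2237.5 in Dscr1KO, against 4456 and 2336 in WT, and decorin (Dcn) 5362 and 6518 in Dscr1KO, against 6490.2 and 4365 in WT, and none of these 3 passed. The keratocyte list had 1 rise and 1 fall without WT replicate 1, 2 falls without WT replicate 2, 2 rises and 5 falls without Dscr1KO replicate 1, and 3 rises and 1 fall without Dscr1KO replicate 2.

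Of 16 tested corneal endothelium genes 4 rose and 3 fell. The summed intensity of the 17 with a probe set was 8115 and 5439 in Dscr1KO, against 12042 and 9901 in WT. The endothelium pumps fluid out of the stroma. Slc4a4, the sodium bicarbonate cotransporter, read 102 and 41.2 in Dscr1KO, against 317 and 234 in WT (-2.01 ± 0.37), the peptidase gene Enpep read 216 and 30.4 in Dscr1KO, against 927 and 860.4 in WT (-3.38 ± 0.71), and N-cadherin (Cdh2) read 142 and 50.5 in Dscr1KO, against 277 and 282 in WT (-1.68 ± 0.43). In each, Dscr1KO replicate 2 was the lower array. Slc4a11, mutated in human endothelial dystrophy, read 240 and 77.9 in Dscr1KO, against 509.8 and 363 in WT (-1.62 ± 0.57, adjusted p = 0.107). Col8a2, a collagen of Descemet's membrane, read 1411 and 544 in Dscr1KO, against 2566 and 1999.5 in WT (-1.37 ± 0.48). Neither passed. The carbonic anhydrases Car12 and Car2, which many epithelia make as well, rose instead, Car12 to 529 and 716 in Dscr1KO against 11.1 and 12.2 in WT (5.34 ± 0.28). With either WT array left out, 2 genes of this list rose and none fell, and without Dscr1KO replicate 1, 4 rose and 8 fell.

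Crystallins, the structural proteins of the lens, gave the largest falls. Of 12 tested crystallins 11 fell and none rose, with a median of -3.76. The summed intensity of the 14 with a probe set was 1149 and 1306 in Dscr1KO, against 15930 and 11366 in WT. Crygd read 2.6 and 3.8 in Dscr1KO, against 2132 and 1472 in WT (-8.03 ± 0.61). Crygb read 12.7 and 2.9 in Dscr1KO, against 3147 and 2044 in WT (-7.95 ± 0.63). Crygf read 2.1 and 2.4 in Dscr1KO, against 1522 and 885 in WT (-7.64 ± 0.38). The gamma-crystallins are close relatives whose probe sets may cross-read. Crygs kept a measurable level, at 72.5 and 217 in Dscr1KO, against 2134 and 1476 in WT (-3.78 ± 0.90), as did Cryaa at 58.4 and 109 in Dscr1KO, against 802 and 574 in WT (-3.03 ± 0.63). Crystallin levels differed widely among the other corneas. Crygd read 3.6 and 0.2 in the double knockout, against 50.8 and 10.6 in ApoeKO, and 4.0 in Dscr1KO on day 5 after suturing, against 1.7 in WT. On day 7 after suturing Crygd read 76.5 in Dscr1TG, against 418 in WT, Crygs 270.5 in Dscr1TG, against 1471 in WT, and Cryaa 91.4 in Dscr1TG, against 1130.4 in WT, so that the WT cornea of day 7 was above both intact WT arrays for Cryaa and close to WT replicate 2 for Crygs. Of the genes of lens membranes and fibres, Lim2 passed among 5 tested, at 18.5 and 19.6 in Dscr1KO, against 167 and 133 in WT (-2.76 ± 0.57), while Mip, the water channel of lens fibres, did not, at 6.4 and 8.9 in Dscr1KO, against 46.6 and 50.5 in WT. Lim2 did not pass with Dscr1KO replicate 2 or either WT array left out. High crystallin values thus stood in the 2 intact WT arrays and in 1 sutured WT array, and the part of lens carried over in dissection was not tested. With either WT array left out, 4 crystallins fell.

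A cluster on chromosome 14 changed in both directions. Ang, a secreted ribonuclease that promotes vessel growth, read 1.3 and 7.9 in Dscr1KO, against 114.5 and 101.5 in WT (-3.89 ± 0.45, adjusted p = 0.00267), while its 3 tested probe sets ranged from -3.89 to -0.23. Rnase4, a ribonuclease made from a start shared with Ang, read 1066.5 and 685 in Dscr1KO, against 131 and 104 in WT (2.84 ± 0.26, adjusted p = 0.000891). Neighbouring genes that can share a start thus moved in opposite directions with no overlap between groups. Pnp, purine nucleoside phosphorylase from the same neighbourhood, read 605.5 and 576 in Dscr1KO, against 2937 and 2649 in WT (-2.23 ± 0.16, adjusted p = 0.000416), with both groups tight. Of 10 tested genes of the neighbourhood 2 rose (Rnase4 and Rnase1) and 2 fell (Ang and Pnp). Without Dscr1KO replicate 2 the counts were 2 and 2 again, and without WT replicate 1 or 2 they were 1 and 2. Other corneas without Dscr1 did not share the low Ang. In the double knockout Ang read 959 and 493, against 182.5 and 135.5 in ApoeKO, and in sutured cornea 436 in Dscr1KO, against 256 in WT. Rnase4 was higher in the double knockout too, at 1296 and 1029, against 182 and 145 in ApoeKO, and Pnp was lower there, at 1618 and 2046, against 3907 and 4201 in ApoeKO. The 250 bases before the start that RefSeq gives to both Ang and Rnase4 (GRCm38.p6) are printed because both genes can be read from it.
Ang and Rnase4, chr14:51090827-51091076, plus strand: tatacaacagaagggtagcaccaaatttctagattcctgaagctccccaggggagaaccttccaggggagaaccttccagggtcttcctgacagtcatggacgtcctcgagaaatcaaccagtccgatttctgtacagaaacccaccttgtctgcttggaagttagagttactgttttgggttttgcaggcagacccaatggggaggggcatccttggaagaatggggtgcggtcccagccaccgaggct
RefSeq gives Rnase4 2 such windows, 1 of them equal to that of Ang, and this window holds no TGANTCA.

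**Figure D3:**
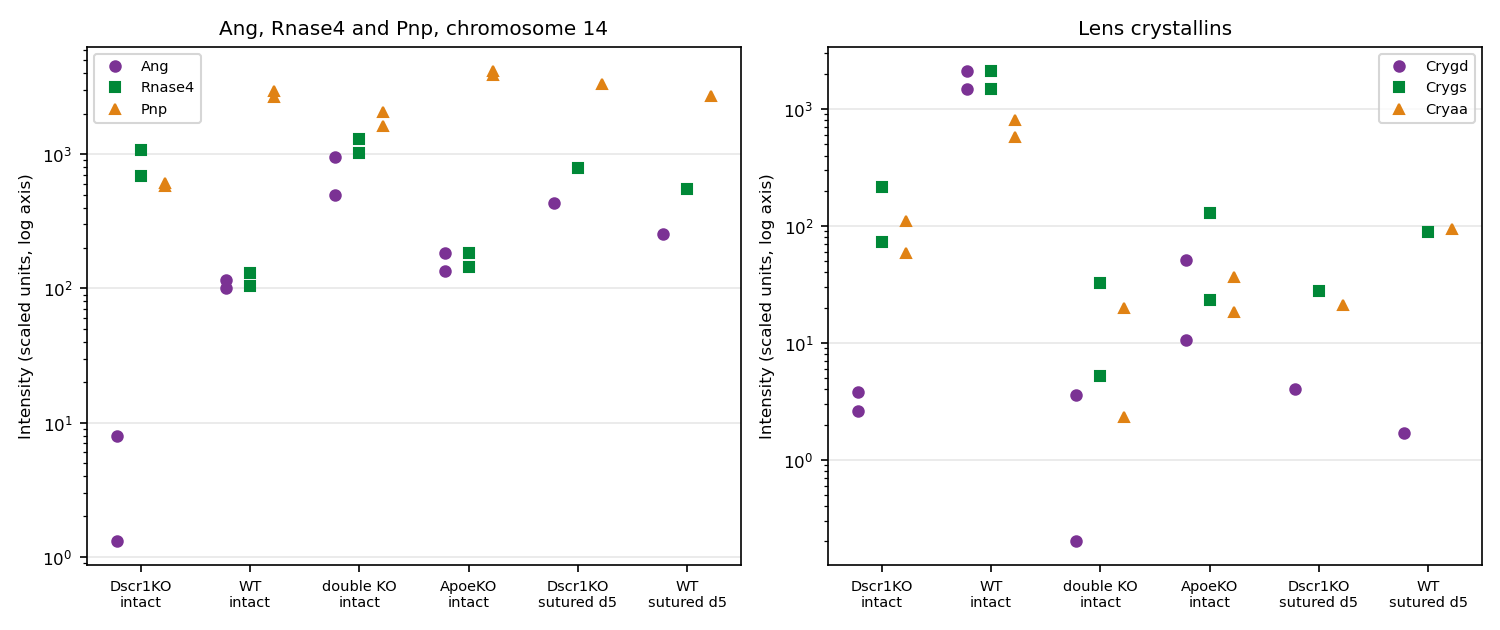
Intensity on a log axis of Ang, Rnase4 and Pnp (left panel) and of the crystallins Crygd, Crygs and Cryaa (right panel) in 6 groups, 1 point an array. Among the groups shown, Ang is lowest in the intact Dscr1KO arrays, and all 3 crystallins are highest in the 2 intact WT arrays.

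On chromosome 7, Trim34a read 9.4 and 54.4 in Dscr1KO, against 364 and 354 in WT (-3.72 ± 0.59), though its second probe set differed by only -0.02, and Trim12a read 6.5 and 38.2 in Dscr1KO, against 261.5 and 252.5 in WT (-3.66 ± 0.57). Both are antiviral tripartite motif genes. The related Trim5, looked up after these values were seen, read 6.5 and 12.2 in Dscr1KO, against 66.5 and 49.9 in WT (-2.28 ± 0.36, adjusted p = 0.00865), while Trim12c, likewise looked up, did not pass (-0.99 ± 0.63). In the double knockout Trim34a read 135 and 214, against 481 and 566 in ApoeKO. Other falls of genes in no list were Necab1, a calcium-binding protein of neurons, at 23.1 and 1.4 in Dscr1KO, against 136 and 133 in WT (-3.58 ± 0.78). Npnt (nephronectin), a basement membrane protein, read 223 and 22.2 in Dscr1KO, against 828 and 735 in WT (-3.36 ± 0.87), and Frem2, of the same matrix, read 129 and 24.6 in Dscr1KO, against 373 and 505 in WT (-2.84 ± 0.63). Adh6b, an alcohol dehydrogenase, was the tightest of them, at 71.5 and 51.9 in Dscr1KO, against 424 and 474 in WT (-2.81 ± 0.24). Peg3, an imprinted gene, read 116 and 45.9 in Dscr1KO, against 559 and 443 in WT (-2.70 ± 0.50). Among rises outside the lists, Calm4, a calmodulin-like protein of epidermis, read 2520.4 and 4589 in Dscr1KO, against 20 and 30.8 in WT (6.90 ± 0.33), the thioesterase gene Them5 read 617 and 1249 in Dscr1KO, against 2.3 and 3.4 in WT (7.10 ± 0.35), and Crabp2, the retinoic acid carrier of skin, read 520.4 and 2769 in Dscr1KO, against 23.0 and 18.3 in WT (5.64 ± 0.66). Srgn, the granule proteoglycan of blood cells, read 1055 and 1195 in Dscr1KO, against 24.5 and 17.1 in WT (5.55 ± 0.41).

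The lipid genes that the title of the series points to gave no calls for cholesterol synthesis and some in the other lists. The share that rose was 10.5% for SREBP control and fatty acid synthesis, 29.4% for efflux and LXR targets and 33.3% for uptake and storage. Over all genes tested, 7.72% rose and 3.87% fell. None of 17 tested cholesterol synthesis genes passed, with a median of -0.14, and the lowest p were those of Tm7sf2 (-0.56 ± 0.15, adjusted p = 0.0556) and Fdps (-0.66 ± 0.21, adjusted p = 0.0854), both on the low side. Without Dscr1KO replicate 1, 2 rose and 3 fell. Of 19 genes of SREBP control and fatty acid synthesis 2 rose and 2 fell. Malic enzyme (Me1), which supplies reducing power for lipid synthesis, read 275 and 436 in Dscr1KO, against 44.8 and 35.4 in WT (3.01 ± 0.26, adjusted p = 0.000771). Scap, the escort of SREBP, read 415 and 533 in Dscr1KO, against 313 and 263 in WT (0.71 ± 0.18). The desaturases Fads1 and Fads2 fell, Fads1 to 286 and 113 in Dscr1KO against 473 and 495 in WT (-1.41 ± 0.37) and Fads2 to 149 and 79.9 in Dscr1KO, against 272 and 242 in WT (-1.21 ± 0.31). Without Dscr1KO replicate 1 this list had 2 rises and 6 falls, without replicate 2, 1 and 2, and with either WT array left out, 1 and 0. Of 17 cholesterol efflux and LXR target genes 5 rose. Cyp7b1, an oxysterol hydroxylase, read 195 and 250.3 in Dscr1KO, against 16.6 and 12.8 in WT (3.63 ± 0.23). Pltp, the phospholipid transfer protein, read 820.2 and 601 in Dscr1KO, against 114 and 109.6 in WT (2.61 ± 0.37). Abca1, the cholesterol exporter, read 664 and 374 in Dscr1KO, against 253 and 173 in WT (1.24 ± 0.30). Several of these are also macrophage genes. Of 15 lipid uptake and storage genes 5 rose, and 2 without Dscr1KO replicate 2, with Fabp4, of fat cells and vessel endothelium, at 101 and 359.6 in Dscr1KO, against 7.0 and 3.5 in WT (4.49 ± 0.68). Without WT replicate 1 or 2 the efflux count was 2 or 1 and the uptake count 1 or 0, and Apoe did not pass (-0.49 ± 1.68).

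The remaining lists gave mixed or empty counts, beside 7.72% of all genes tested that rose and 3.87% that fell. Near the first of these lay the shares that rose of photoreceptor (7.69%), heat shock (5.26%) and clock genes (5.88%). None of 24 cell cycle genes or 19 mitochondrial respiration genes passed, at medians of 0.01 and 0.14, though without Dscr1KO replicate 1, 6 and 4 rose and 2 and 1 fell. Of 17 clock genes 3 fell and 1 rose, but none passed with Dscr1KO replicate 2 or either WT array left out, and 5 fell and 2 rose without Dscr1KO replicate 1. Dbp, a clock output factor, read 749 and 749 in Dscr1KO, against 1349 and 1669 in WT (-1.0 ± 0.23), and no source used here gives collection times. Of 20 immediate early genes 4 rose, 2 without Dscr1KO replicate 2, 14 without Dscr1KO replicate 1, and 1 or 0 without WT replicate 1 or 2, with Nr4a1 at 44.9 and 542 in Dscr1KO, against 0.7 and 5.0 in WT. Of 17 glycogen and glucose genes 3 rose and 3 fell, none with either WT array left out, and 5 rose and 6 fell without Dscr1KO replicate 1. Pygl, a glycogen phosphorylase, read 405 and 78.6 in Dscr1KO, against 1325 and 1351 in WT (-2.87 ± 0.68), and hexokinase 2 (Hk2) read 563 and 1126 in Dscr1KO, against 251.5 and 189 in WT (1.85 ± 0.31). Of 23 antioxidant genes 5 rose and 1 fell, against 2 rises with either WT array left out and 8 without Dscr1KO replicate 1, with Gpx3 at 1316.5 and 360.5 in Dscr1KO, against 1.6 and 14 in WT (6.18 ± 0.77). Among pigment cell genes 3 of 10 fell and 2 rose, none with either WT array left out, Tyrp1 being lower at 48.5 and 73.9 in Dscr1KO, against 256 and 216.5 in WT (-1.91 ± 0.40). Of 21 Wnt genes 3 rose and 4 fell. The Wnt inhibitors Sfrp2 and Dkk2 moved apart, Sfrp2 at 462.5 and 999.5 in Dscr1KO, against 60.8 and 19.2 in WT (4.16 ± 0.53) and Dkk2 at 291 and 54.0 in Dscr1KO, against 911 and 771 in WT (-2.69 ± 0.69), and without Dscr1KO replicate 2, 3 rose and 1 fell, without replicate 1, 3 and 8, and with either WT array left out, 1 and 0. Kit, a receptor of pigment and mast cells, was lower at 274 and 66.2 in Dscr1KO, against 860.5 and 873.5 in WT (-2.64 ± 0.56), while the mast cell genes Cpa3 and Hdc rose (2.65 ± 0.65 and 4.05 ± 0.82), and none of these passed with either WT array left out. Smaller counts were 6 rises of 14 complement genes, 3 of 11 S100 genes, 2 of 15 claudin and tight junction genes, 2 of 10 nerve sheath genes, 1 of 13 photoreceptor genes and 1 of 19 heat shock genes, 2 falls of 6 skeletal muscle genes and 1 of 12 EGF family genes, and 2 rises and 1 fall of 14 desmosome genes. The complement list had 2 rises without WT replicate 1 and 1 without WT replicate 2, and the claudin, nerve, photoreceptor, heat shock, muscle and EGF lists had none with either left out.

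The 2 Dscr1KO arrays were not alike in every program. The median difference of replicate 1 minus replicate 2 was 2.48 for B and plasma cell genes, -0.20 for keratins of epidermis, -1.28 for immediate early genes and -2.82 for SPRR genes. Among the genes that differed most, some were higher in replicate 1. Igkv8-30 read 2817.5 and 18.8 in Dscr1KO replicates 1 and 2, Mt4, a metallothionein of stratified epithelium, 1934 and 66.9, and Krt1 3806 and 221.5. Others were higher in replicate 2, Ptgs2 at 59.0 and 909, Plk3 at 29.6 and 277 and Sprr1b at 128 and 4797, in the same order. Sult2b1, which adds sulfate to cholesterol in skin, read 66.0 and 727 in Dscr1KO, against 12.1 and 8.6 in WT (4.03 ± 0.95). In every gene that passed, both Dscr1KO arrays lay on the same side of both WT arrays. They also did so in many genes that did not pass, since this held for 3611 genes above WT and 4146 below. The correlation of the 2 Dscr1KO arrays over all genes tested was 0.935, against 0.987 for the WT arrays, as a description.

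**Figure D4:**
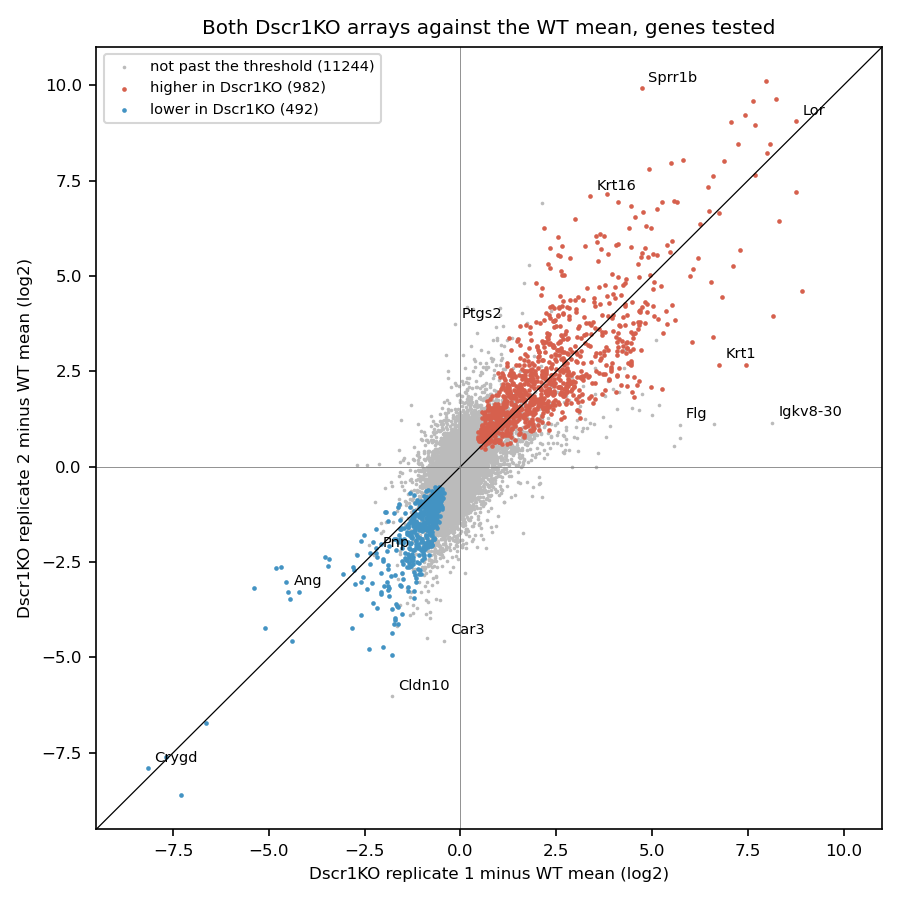
Difference from the WT mean (log2) in Dscr1KO replicate 1 (x axis) and Dscr1KO replicate 2 (y axis) for the 12718 genes tested, with genes past the threshold in red (higher, 982) and blue (lower, 492), the others in grey, and equal differences along the diagonal. Lor and Crygd lie near the diagonal, while Krt1, Flg and Igkv8-30 are high mainly in replicate 1 and Sprr1b, Krt16 and Ptgs2 mainly in replicate 2.

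The double knockout and ApoeKO arrays gave a second Dscr1 difference, on other arrays and with an Apoe knockout in the titles of both groups. Dscr1KO replicate 2 also has ApoE-/- in its source name, and ApoeKO replicate 1 read 849 for Apoe. The 2 differences therefore do not cleanly set Apoe apart. Only Crygf differed between the 2 Dscr1 differences in the fit (1 of 12718 genes, 0.00786%, adjusted p = 0.022), and 966 genes (7.6%) did so at an unadjusted p of 0.05. This does not show that the other differences were alike, since the spread of the double knockout was large too. The large rises stood in both. Lor read 6276 and 4432 in the double knockout, against 2.6 and 0.7 in ApoeKO, and Krt10 read 4130 and 5827 in the double knockout, against 197 and 153.5 in ApoeKO. The list medians in the double knockout minus ApoeKO were 8.17 for SPRR genes, 3.57 for neutrophil genes and 2.99 for blood endothelium genes. Ang was a case where the differences pointed in opposite directions, at -3.89 for Dscr1KO minus WT and 2.10 for the double knockout minus ApoeKO (adjusted p of the difference in the fit 0.083). Xist was high in both ApoeKO arrays, at 4622 and 4598, and in double knockout replicate 1, at 4257, and low in double knockout replicate 2, at 19.6. The Xist-low double knockout array read 4432 for Lor and the Xist-high one 6276, against 2.6 and 0.7 in the Xist-high ApoeKO arrays.

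The sutured corneas on day 5 shared no array with the intact ones and had 1 array a group, so they allow values but no test. Both were low in Xist, at 6.0 in Dscr1KO and 9.6 in WT. Rcan1 read 479 in sutured Dscr1KO, against 664 in sutured WT. Of the 982 genes that were higher in intact Dscr1KO, 202 (20.57%) were at least 2-fold higher in sutured Dscr1KO, beside 4.26% of all genes tested, and 62 (6.31%) were at least 2-fold lower, beside 1.97% of all genes tested. Vessel and matrix genes were among those higher in both. Vwf read 59.5 in sutured Dscr1KO and 15 in sutured WT, Rgs5 read 907 in sutured Dscr1KO and 188 in sutured WT, and Col3a1 read 3775 in sutured Dscr1KO and 606 in sutured WT. The envelope genes differed from the intact pattern. Lor and Krtdap were at background in both sutured arrays, and Sprr2f read 8.1 in sutured Dscr1KO and 473 in sutured WT. Krt16 read 264 in sutured Dscr1KO and 2230 in sutured WT, and S100a9 read 390 in sutured Dscr1KO and 6192 in sutured WT. The median difference on day 5 was -2.31 for SPRR genes and -0.39 for neutrophil genes, and 1.08 for macrophage genes and 1.44 for blood endothelium genes. Of the 492 genes that were lower in intact Dscr1KO, 7 (1.42%) were at least 2-fold lower in sutured Dscr1KO, and their median there was 0.08. Pnp read 3334 in sutured Dscr1KO and 2738 in sutured WT.

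**Figure D5:**
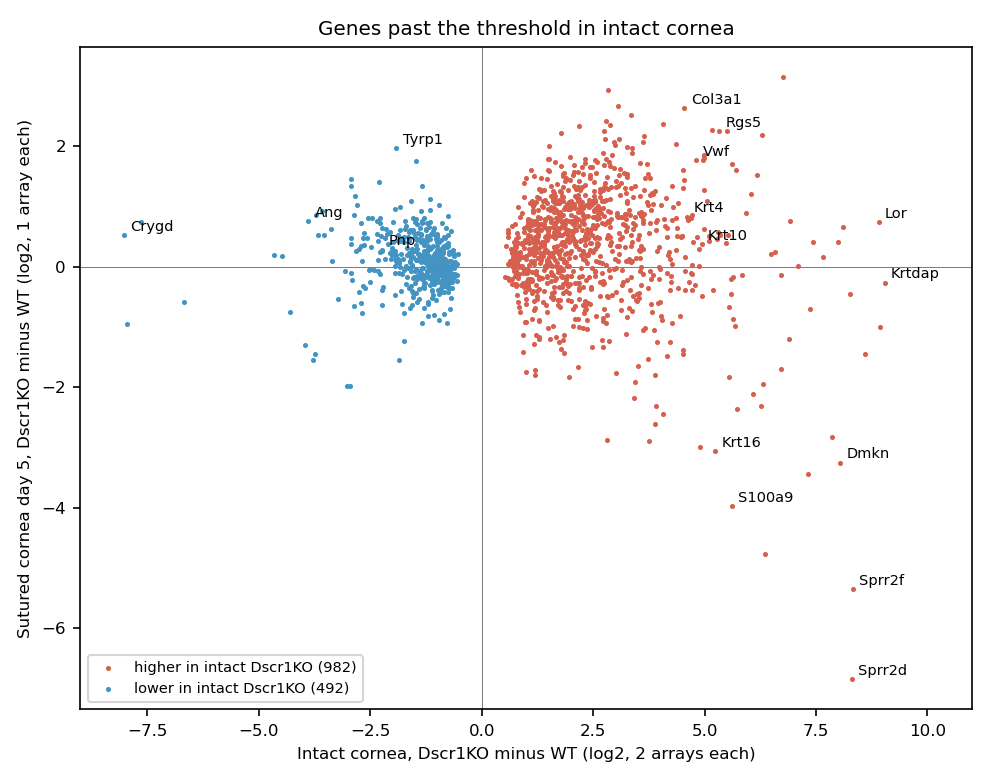
Difference Dscr1KO minus WT (log2) in intact cornea (x axis, 2 arrays each) and in sutured cornea on day 5 (y axis, 1 array each), for the 982 genes higher (red) and the 492 genes lower (blue) in intact Dscr1KO. Vwf, Rgs5 and Col3a1 lie above 0 on both axes, Lor, Krtdap and Krt10 near 0 on the y axis, and Sprr2d, Sprr2f, S100a9 and Krt16 well below 0 there.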

How the data were processed

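The authors' deposited values are linear microarray intensity values of 45101 probe sets on 12 arrays, each array scaled to a trimmed mean of 100. Per the labels, 100 ng of total RNA was made into biotinylated cRNA. No source used here names the software that made them. Probe sets were named from the platform annotation, with 34958 carrying 1 symbol, 932 several and 9211 none. A gene was read from its brightest probe set over all arrays, and kept where its mean log2(intensity + 3.6) over the 8 intact arrays reached the 40th percentile (intensity 9.85). No detection calls were used. The 8 intact arrays, in 4 groups of 2, were fitted with limma 3.58.1 (R 4.3.3, intensity trend, Benjamini-Hochberg adjustment over all genes tested, threshold 0.05), since 4 arrays alone leave little to estimate the spread. Members and lists were chosen with earlier results of these data known. The genes named were the largest changes of all, among bright genes and outside the lists, up to 4 of each list, the neighbours of Rcan1, the genes that differed most between replicates, and fixed cell markers. Abca1, Col1a1, Col1a2, Elane, Ivl, Kdr, Mpo, Pdpn, Ppp3ca, Prox1, Rcan2, Rcan3, Trim5, Trim12c and Vegfa were named after their values were seen. On simulated data with 50 genes shifted at each size, the fit found 4% of those shifted by 0.5 on the log2 scale and 36% of those shifted by 1. It found 84% of those shifted by 2 and 100% of those shifted by 4, and 7.44% of its calls were false. The simulation gave a gene the same spread in every array, while the real Dscr1KO arrays spread more than the WT arrays, so these shares need not hold here. Same-numbered arrays deviated together little or not at all (correlations from -0.04 to 0.10), so the numbers were not taken to pair the arrays. With 1 replicate difference a group, this cannot show that no arrays were processed together. The alternatives changed the filter, the scaling, the added constant, the fit and the arrays included.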

Additional observations from a re-analysis of the deposited data

Results flagged for a closer look

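Crygf, a lens crystallin, was the gene whose Dscr1 difference depended on the ApoE-/- label in the fit. Its difference Dscr1KO minus WT exceeded its difference double knockout minus ApoeKO by -6.86 on the log2 scale (limma, adjusted p = 0.022), and among the 8 intact arrays the high values were those of WT.

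Of 226 genes picked by size of change or list and past the threshold in intact cornea, not all of them named in the text, 13 had a difference of at least 2 in the opposite direction between the sutured arrays of day 5. That difference was not tested, since each sutured group had 1 array. All 13 were higher in intact Dscr1KO and lower in sutured Dscr1KO than in sutured WT. The share of all genes tested at this cut was not counted. At a cut of 1 instead, 1.97% of all genes tested were lower in sutured Dscr1KO and 4.26% higher. The envelope genes read -6.84 for Sprr2d, -5.35 for Sprr2f, -3.44 for Sprr1b, -3.25 for Dmkn, -2.99 for Cnfn, -2.36 for Sbsn and -2.31 for Sprr1a. The wound keratins read -3.06 for Krt16 and -2.12 for Krt17, calprotectin read -3.98 for S100a9 and -2.83 for S100a8, and the cytokines Csf3 and Il1f6 read -2.90 and -2.87.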

How the results depend on the processing

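Of the genes whose names stand in the text, 147 passed, and of these none changed direction under any alternative run, 116 passed under every alternative that left out no array and 74 under every alternative. The total of 1474 genes was 757 with the 4 compared arrays alone and 654 without ApoeKO replicate 1 and Dscr1KO replicate 2 together. It ran from 254 to 3846 with 1 array left out, 3846 without Dscr1KO replicate 1, 254 without WT replicate 2, 889 and 884 without ApoeKO replicate 1 and 2. The 982 rises were 626 with the filter at the 60th percentile, 624 with 4 arrays, 560 without the 2 doubted arrays and 232 to 1792 with 1 array left out. The 492 falls were 324 with no intensity trend, 133 with 4 arrays, 94 without the 2 doubted arrays and 22 to 2054 with 1 array left out. The single gene of the difference of differences became 0 with the stricter filter, the lower constant or both doubted arrays left out, 2 with no filter, 4 with the higher constant and 0 to 36 with 1 array left out. A replicate block gave 1252 genes in all, 881 higher and 371 lower, and 2 for the difference of differences. Since the numbers were not taken to pair the arrays, it is only an alternative. Leaving out the sex chromosomes left 1420 genes. In every gene that passed, the 2 groups did not overlap. Leaving out an array therefore could not turn the direction of the 147 genes above, many of them picked for large changes.

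Some genes that did not pass changed sign. With quantile normalization Aldh3a1 was -0.12, Dcn -0.062, Krt5 -0.20 and Tkt -0.20, and a second Tkt probe set gave -2.27. Without both doubted arrays Apoe was 0.51, Krt5 -0.020, Ptgs2 -0.14, Tkt -0.0092 and Vegfa -0.021. With 1 array left out, Aldh3a1 ran from -0.049 to 0.35, Apoe from -1.49 to 0.51, Clic6 from -0.80 to 0.25, Dcn from -0.13 to 0.44, Krt5 from -0.13 to 0.20, Lum from -0.93 to 0.0021, Ptgs2 from -0.14 to 3.73, Tkt from -0.077 to 0.31 and Vegfa from -0.021 to 0.96. The cause of these shifts was not tested. Precision is limited by having 2 arrays in each group, and values near the added constant have no order.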
